A study of Homo sapiens
Mus musculus with 5 samples.

Results

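Levels of 6 neurotrophin system genes, the ligands BDNF and NTF3 (neurotrophin-3) and the receptors NTRK2, NTRK3, NGFR and SORT1, were described in the cancer cells and the host of 5 tumors, with human and mouse genes chosen by these symbols. Neurotrophins are secreted growth factors of neurons, and they act through Trk receptor tyrosine kinases (NTRK2, which encodes TrkB and binds BDNF, and NTRK3, which encodes TrkC and binds neurotrophin-3). The p75 receptor, encoded by NGFR, binds all neurotrophins with low affinity. Sortilin, encoded by SORT1, is a sorting receptor that binds proneurotrophins, joins p75 at the cell surface and directs proBDNF inside the cell. In the healthy brain BDNF comes mainly from neurons, and NTRK2 is expressed by neurons and, largely as a truncated receptor without the kinase, by astrocytes.

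The RNA sequencing libraries came from tumors that grew in athymic nu/nu mice (without a thymus and so without mature T cells) from H2030-BrM3, a human lung adenocarcinoma line that is a brain-seeking derivative of H2030. There were 3 brain tumors and 2 orthotopic lung tumors, the latter seeded through the trachea. All tumors came from this 1 line and mouse strain, the labels name no other treatment, age or time of collection, and nothing in them says that each tumor came from a separate animal, and p-values therefore cover no more than the spread among these samples, which may be technical. Human genes (25524 in all) were read as the cancer cells and mouse genes (24628) as the host. Levels are RPKM, read counts scaled to gene length and to the reads of the same species. Of the 6 members 5 were found among the human genes and 6 among the mouse genes. Human NTF3 was not analysed here, and the human table lists 0 genes at 0 in all 5 libraries.

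Libraries held 2445463 to 8418107 human and 231044 to 8634688 mouse reads, recovered from the RPKM. Lung tumor 1 was by far the poorest in mouse reads, with 3.41% of all its reads, against 24.4%, 43.5% and 77.9% in brain tumors 1, 2 and 3 and 58.6% in lung tumor 2. In that library the longest tested genes (implied length over 1973 bases in human and 3061 in mouse) lay below their means over libraries, with medians of -0.54 for human and -0.82 for mouse genes on the log2 scale. The cancer cells carried epithelial keratins, with KRT8 between 428 and 1343 RPKM and KRT18 between 210.5 and 604 RPKM, while KRT19 stayed at or below 0.458. In the host, summed markers of astrocytes (6 of 6 found) ran from 10703 to 13144 RPKM in brain and from 151 to 187 RPKM in lung tumors, and those of neurons (6 of 6 found) from 1336 to 2206 and from 5.07 to 35.8. In bulk tissue fewer cells of a type and less RNA per cell cannot be told apart.

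Cancer cells expressed the ligand BDNF and the sorting receptor SORT1, and had almost no transcript of either Trk receptor or of p75. BDNF stood at 7.50, 7.44 and 4.07 RPKM in brain tumors 1, 2 and 3 and at 4.05 and 6.01 RPKM in lung tumors 1 and 2. The groups overlapped, since brain tumor 3 was close to lung tumor 1 and lung tumor 2 lay between the brain tumors. The reads behind them numbered 261, 197 and 41 in brain tumors 1 to 3 and 109 and 93 in lung tumors 1 and 2. Means were 6.34 ± 1.96 RPKM (SD, n = 3) and 5.03 ± 1.39 RPKM (n = 2). The log2 fold change of RPKM + 1, brain minus lung, was 0.26 (SE 0.45, 95% interval -0.78 to 1.30, limma adjusted p = 0.836), so a difference between the sites was not detected, and the interval reaches from 0.584-fold to 2.47-fold. BDNF (ENSG00000176697.18) is a protein-coding gene of chromosome 11 (27654893 to 27722030, GRCh38), where the antisense transcript BDNF-AS overlaps it. BDNF-AS had 6, 8, 0, 3 and 3 reads in the same order of libraries, at most 4.06% of those of BDNF. Whether counting used the strand is not given in the sources used here, so reads of the pair cannot be told apart.

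SORT1 was the human member with the largest difference between the sites, higher in the brain tumors, though it did not pass the test over all genes. It stood at 316, 303 and 409 RPKM in the brain tumors and at 84.7 and 164 RPKM in the lung tumors, on 1561, 1139 and 585 against 324 and 361 reads. All 3 brain tumors lay above both lung tumors, and the lung tumors themselves differed by more than their counting error (95% Poisson intervals of 75.5 to 94.1 and 148 to 183 RPKM, which cover counting error only, as do all such intervals here). The means were 343 ± 57.8 RPKM (SD, n = 3) and 125 ± 56.3 RPKM (n = 2). The log2 fold change was 1.52 (SE 0.38, 95% interval 0.65 to 2.38), or 2.86-fold, with a limma unadjusted p of 0.00361 and an adjusted p of 0.370. Brain tumors lay above lung tumors without overlap for 17.4% of tested human genes, and 0.00693% of them (1 of 14423, IGFBP5) passed the test. Without lung tumor 2 the adjusted p of SORT1 was 0.0218 and the log2 fold change 1.99, and without lung tumor 1 they were 0.339 and 1.04. The adjusted p ran from 0.0218 to 0.903 over 13 alternatives, and 1 of them passed. SORT1 (ENSG00000134243.11) is a protein-coding gene of chromosome 1 (109309575 to 109397918, GRCh38).

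How reads were assigned to a species is not given in the sources used here, so the mouse gene is set beside the human one. Mouse Sort1 had 990, 2623 and 3903 reads in the brain and 20 and 2628 reads in the lung tumors. Lung tumor 1 had the fewest reads of both genes, and the part of read assignment in the SORT1 values was not tested. The ratio of SORT1 to BDNF within a library was 42.1, 40.7 and 101 in brain tumors 1 to 3 and 20.9 and 27.3 in lung tumors 1 and 2. All 3 brain ratios were above both lung ratios, and that of brain tumor 3 was the highest, with low BDNF and high SORT1. These ratios are not ratios of transcript numbers: the gene length implied by the RPKM was 587 bases for SORT1 and 4136 for BDNF, and how lengths were defined is not given in the sources used here.

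**Figure D1:**
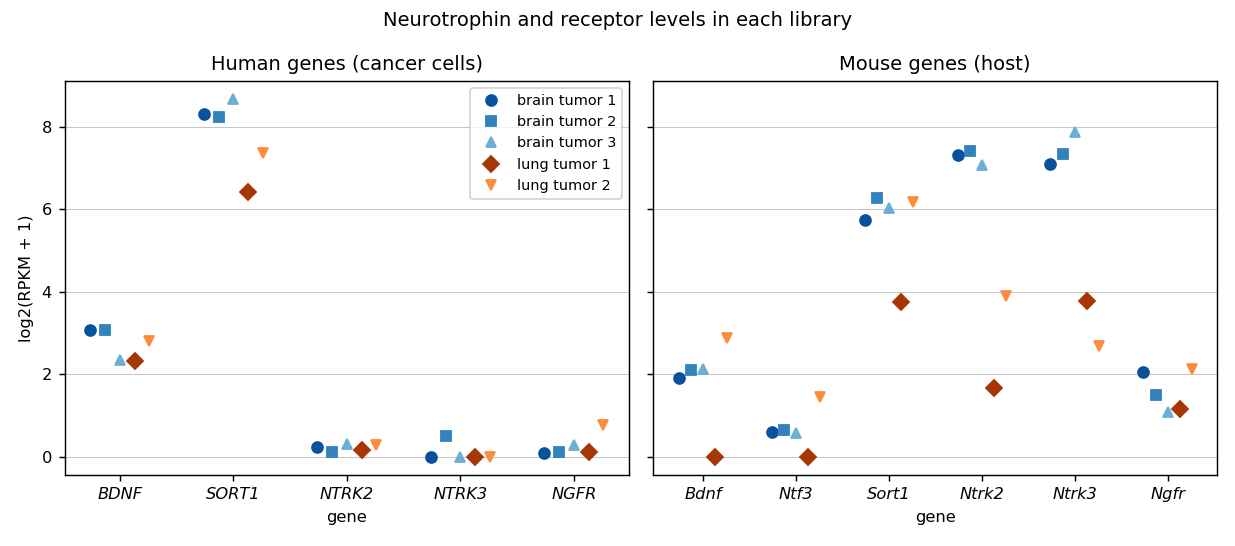
Level of each member in each library on the log2(RPKM + 1) scale (vertical axis), human genes on the left and mouse genes on the right, with 1 point per library. Human NTRK2, NTRK3 and NGFR lie near 0 in all 5 libraries, and mouse Ntrk2 and Ntrk3 are high in the 3 brain tumors and low in both lung tumors.

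The Trk receptors and p75 of the cancer cells were near 0 at both sites. Human NTRK2 was at 0.185, 0.0885 and 0.233 RPKM in the brain and 0.131 and 0.227 RPKM in the lung tumors, on 11, 4 and 4 against 6 and 6 reads. The groups overlapped fully. Mouse Ntrk2 had 3430, 6620 and 9117 reads in the brain tumors but 4 and 587 in the lung tumors. The part of read assignment between species in the few human reads was not tested. NTRK3 was above 0 in brain tumor 2 alone, at 0.426 RPKM, and its number of reads there is not fixed, because reads are recovered from ratios between libraries. NGFR had 1 read in each of 4 libraries (0.0629, 0.0828 and 0.217 RPKM in the brain tumors and 0.0813 in lung tumor 1) and 5 reads, or 0.708 RPKM, in lung tumor 2. For this gene 3 reads correspond to 0.189 to 0.650 RPKM, so a level of that size could not be told from 0. None of these 3 reached the filter for testing, which asked for RPKM ≥ 1 in 2 libraries or more. Without that filter their log2 fold changes were -0.01 for NTRK2, 0.17 for NTRK3 and -0.28 for NGFR (limma adjusted p = 0.973, 0.777 and 0.734). In the human annotation NTRK2 (ENSG00000148053.15) lies on chromosome 9 from 84668522 to 85027054, NTRK3 (ENSG00000140538.16) on chromosome 15 from 87859751 to 88256739 and NGFR (ENSG00000064300.8) on chromosome 17 from 49495293 to 49515008, all protein-coding.

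Host tissue held transcripts of both ligands at low levels. Mouse Bdnf was at 2.77, 3.31 and 3.37 RPKM in the brain tumors, 0 in lung tumor 1 and 6.34 RPKM in lung tumor 2. Its reads numbered 30, 65, 116, 0 and 134. At the depth of lung tumor 1, 3 reads would be 3.25 RPKM, so levels like those of the brain tumors were at the limit of detection there. The highest value of all was in lung tumor 2, above the brain tumors. By limma the log2 fold change was 0.61 (SE 0.85, adjusted p = 0.632). Its direction rested on lung tumor 1: leaving that library out gave -0.83, and leaving out lung tumor 2 gave 2.05. Of the 12 alternatives, those that keep both lung tumors gave a limma adjusted p from 0.443 to 0.821. Mouse Ntf3, the source of neurotrophin-3, had 0.515, 0.569 and 0.486 RPKM in the brain tumors, 0 in lung tumor 1 and 1.72 RPKM in lung tumor 2. Those are 2, 4, 6, 0 and 13 reads, the gene did not reach the filter, and in lung tumor 1 as much as 9.08 RPKM would have been 3 reads. For both ligands lung tumor 2 thus lay above the 3 brain tumors, and lung tumor 1 could not be read. For Ntf3 the Poisson interval of lung tumor 2 (0.915 to 2.94 RPKM) overlapped those of all 3 brain tumors.

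Cancer cells and host contributed different shares of the BDNF transcript from tumor to tumor. Mouse reads were 10.3%, 24.8% and 73.9% of all reads of the gene pair in brain tumors 1, 2 and 3 (exact binomial 95% intervals 7.06 to 14.4%, 19.7 to 30.5% and 66.3 to 80.6%). In lung tumor 1 they were 0 of 109, with an upper bound of 3.33%, and in lung tumor 2 59.0% (52.3 to 65.5%). In brain tumors 1 and 2 this was below the mouse share of all reads, at 24.4% and 43.5%, and the cancer cells gave most of the BDNF reads. In brain tumor 3 and lung tumor 2 the intervals included the mouse share of all reads, at 77.9% and 58.6%. Gene lengths implied by the RPKM were alike, 4136 bases for BDNF and 3990 for Bdnf, and the shares per length were 10.6%, 25.5%, 74.6%, 0% and 59.9%. For the other pair that both compartments expressed, SORT1 and Sort1, mouse reads made up 38.8%, 69.7% and 87.0% in brain tumors 1 to 3 and 5.81% and 87.9% in lung tumors 1 and 2. Here the implied lengths differed, at 587 and 6946 bases, and per length the shares were 5.09%, 16.3%, 36.1%, 0.519% and 38.1%, so that cancer cells had the larger share in all 5 libraries on that scale and in 2 of 5 by reads.

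**Figure D2:**
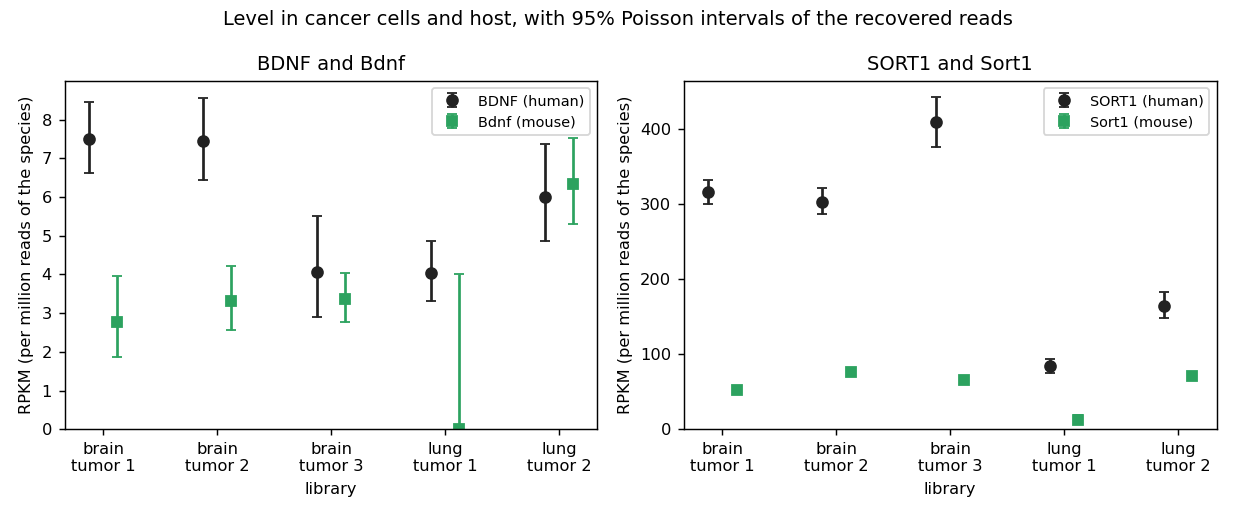
RPKM of BDNF and Bdnf (left) and of SORT1 and Sort1 (right) in each library, black circles for the human and green squares for the mouse gene, with bars for the 95% Poisson interval of the recovered reads. The interval of Bdnf in lung tumor 1 runs from 0 to 4.0 RPKM, and SORT1 is higher in the 3 brain tumors than in both lung tumors.

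**Figure D3:**
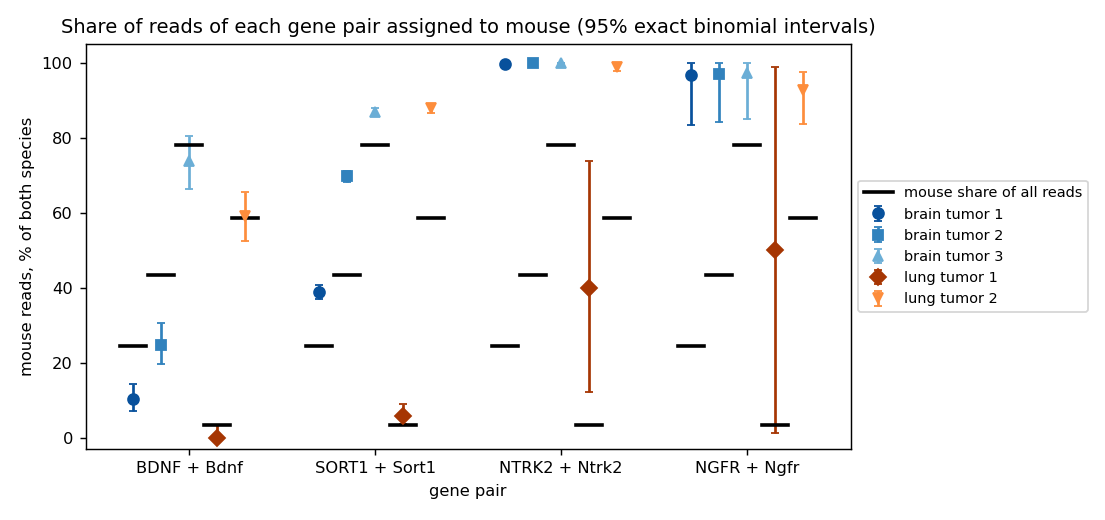
Mouse reads as a percent of the reads of both species for 4 gene pairs (vertical axis), 1 point per library with its exact binomial 95% interval. Black bars give the mouse share of all reads of that library, and NTRK2 plus Ntrk2 lies at 99.0% or more in the 4 libraries other than lung tumor 1.

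Nearly all Trk receptor transcripts were mouse in the libraries other than lung tumor 1, where NTRK2 had 6 human and 4 mouse reads, and both mouse genes were higher in brain than in lung tumors. Mouse Ntrk2 was at 159, 169.6 and 133 RPKM in the brain tumors and at 2.17 and 14.0 RPKM in lung tumors 1 and 2. The groups stood far apart, and the lung tumors differed from each other. The means were 154 ± 18.8 RPKM (SD, n = 3) and 8.07 ± 8.34 RPKM (n = 2), and the log2 fold change was 4.48 (SE 0.66, limma adjusted p = 0.00771). The call was lost without brain tumor 3, at an adjusted p of 0.0517 and a log2 fold change of 4.58, and held in the other 12 of 13 alternatives (adjusted p from 0.000999). Mouse Ntrk3 was at 135, 161 and 234 RPKM in the brain and at 12.8 and 5.41 RPKM in the lung tumors. It again did not overlap, with brain tumor 3 the highest. Its means were 177 ± 51.3 RPKM (SD, n = 3) and 9.09 ± 5.20 RPKM (n = 2). On the log2 scale brain tumors were 4.21 higher (SE 0.45, limma adjusted p = 0.00291, and 0.00158 to 0.0307 over 13 alternatives). The value of lung tumor 1 rests on 3 reads, with a Poisson interval of 2.65 to 37.5 RPKM. Of the 5 mouse members tested these 2 rose in the brain tumors, while 14.3% of 15431 tested mouse genes were called higher and 8.12% lower, and brain tumors lay above lung tumors without overlap for 30.0%. The comparison is one of host brain with host lung, and no tumor-free tissue was analysed here.

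Levels of brain cell markers are given beside these receptors. Ntrk3 stood to Snap25, a synaptic protein gene of neurons, at 0.20, 0.23 and 0.22 in brain tumors 1 to 3 and at 1.07 and 6.88 in lung tumors 1 and 2. Ntrk2 stood to Slc1a2, the main glutamate transporter gene of astrocytes, at 0.0205, 0.0178 and 0.0172 in the brain and 0.0252 and 0.380 in the lung tumors. To Gfap, an intermediate filament gene of astrocytes, it stood at 0.0631, 0.0898 and 0.0990 in the brain and 0.0892 and 17.9 in the lung tumors. The ratios to Snap25 and Slc1a2 thus varied less among the brain tumors than that to Gfap, and all 3 were highest in lung tumor 2. Other markers of the same cells did not all run alike. In the order of brain tumors 1, 2 and 3, Snap25, Rbfox3 and Gad1 rose at each step, while Syt1, Slc17a7 and Tubb3 did not. Of the astrocyte markers, Gfap, Aqp4 and Aldh1l1 fell at each step, while Slc1a2, Slc1a3 and Gja1 did not. Which cells carried the receptors was not tested. Both lung tumors held some transcripts of 5 brain markers, which did not share an order between them. As a percent of the brain tumor mean, Gfap was at 1.27% in lung tumor 1 and 0.0408% in lung tumor 2, Snap25 at 1.47% and 0.0964%, and Slc1a2 at 1.03% and 0.441%. Aqp4, at 0.490% and 1.053%, and Mbp, at 1.48% and 1.63%, were higher in lung tumor 2. Ntrk2 was at 1.41% of its brain mean in lung tumor 1, on 4 reads, and 9.08% in lung tumor 2, on 587 reads, and Ntrk3 at 7.21%, on 3 reads, and 3.06%, on 29 reads. The part of such brain transcripts in the values of either lung tumor was not tested.

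The p75 receptor of the host was low at both sites. Mouse Ngfr was at 3.14, 1.85 and 1.12 RPKM in the brain and at 1.22 and 3.38 RPKM in the lung tumors, on 30, 32 and 34 against 1 and 63 reads. The groups overlapped fully, and the log2 fold change, brain minus lung, was -0.09 (SE 0.52, 95% interval -1.37 to 1.18, limma adjusted p = 0.907), which turned to 0.01 with median-ratio scaling of the libraries. For 4 markers of Schwann cells, a cell type that carries p75 in peripheral nerve, the summed level ran from 102 to 157 RPKM in the brain and from 476 to 725 RPKM in the lung tumors. Their part in the Ngfr values was not tested. Sortilin in the host also overlapped between the sites. Mouse Sort1 was at 52.5, 76.8 and 65.1 RPKM in the brain and at 12.4 and 71.5 RPKM in the lung tumors, so that 1 lung tumor was as high as the brain tumors and the other was far lower, on 20 reads (7.61 to 19.2 RPKM). Its log2 fold change was 1.06 (SE 0.71, limma adjusted p = 0.320), but leaving out lung tumor 1 gave -0.16 and leaving out lung tumor 2 gave 2.28. With an implied length of 6946 bases Sort1, like Ntrk2, Bdnf and Ngfr, is among these longest mouse genes, which were low in lung tumor 1 as given above. The part of gene length in its value there was not tested.

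**Figure D4:**
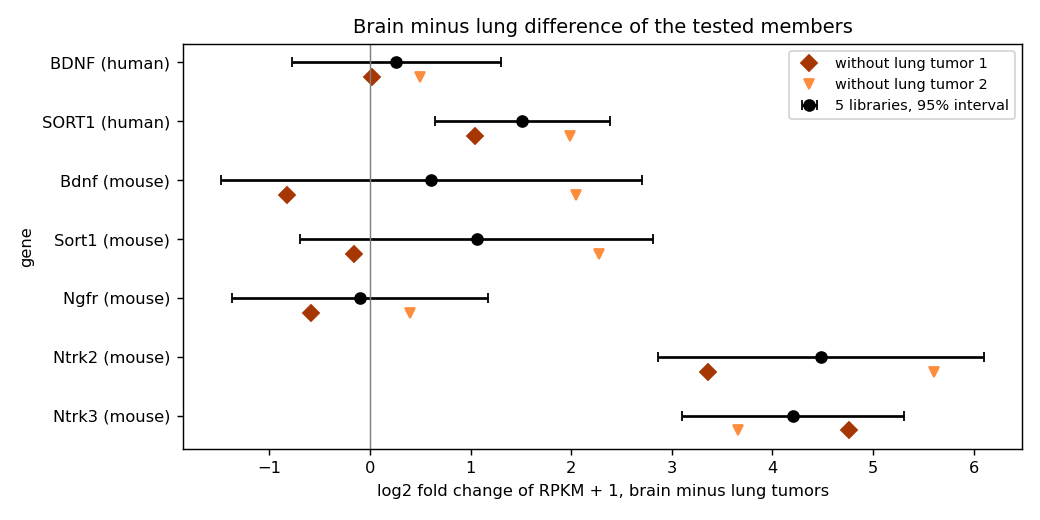
Log2 fold change of RPKM + 1, brain minus lung tumors, of the 7 tested members, with the 95% interval of the fit on 5 libraries (black) and the value without lung tumor 1 (brown diamonds) or lung tumor 2 (orange triangles). Ntrk2 and Ntrk3 lie well above 0 in all 3 fits, and Bdnf, Sort1 and Ngfr change sign with the lung tumor left out.

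Other genes of the pathway were taken from a list of 56, of which 51 human and 55 mouse genes were found. In the cancer cells 43 were tested and 0 passed in either direction by limma over all genes, while 10 had an unadjusted p under 0.05, against 10.5% of all tested human genes. Their median log2 fold change was 0.47, with 31 positive and 12 negative values, beside a median of 0.09 over all tested genes. Without overlap 13 were higher and 5 lower in the brain tumors, beside 17.4% and 12.3% of all tested human genes (29.7% in either direction). Among the ligands NTF4 (neurotrophin-4, the other TrkB ligand) was at 5.57, 6.63 and 5.04 RPKM in the brain and 6.34 and 9.26 RPKM in the lung tumors, and the groups overlapped. These values are uncertain since the genome holds the NTF4 pseudogenes NTF6A, NTF6B and NTF6G.

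Relatives of sortilin did not pass the test in cancer cells. SORL1, a sorting receptor of the same VPS10 domain family, was at 36.6, 48.0 and 45.4 RPKM in the brain and 10.4 and 13.8 RPKM in the lung tumors, without overlap (log2 fold change 1.76, SE 0.36, limma adjusted p = 0.304). SORCS2, of the same family and named after its values were seen, was at 0.985, 1.92 and 3.91 against 0.142 and 0.411 RPKM, the lung values on 3 and 5 reads (log2 fold change 1.27, SE 0.50, adjusted p = 0.471). The NGFR coreceptor gene RTN4R, the Nogo receptor, overlapped, at 7.62 ± 2.35 (SD, n = 3) and 10.2 ± 1.16 RPKM (n = 2). Of the 4 tested receptor genes of the list 3 were higher in all brain tumors than in both lung tumors, beside 17.4% of all tested human genes. Proneurotrophin processing enzymes had no common direction (median 0.01, 4 positive and 3 negative of 7). FURIN, the protease that cleaves proneurotrophins, was at 393 ± 79.8 and 418 ± 233 RPKM, and CPE, which sorts proBDNF into secretory granules, at 114 ± 32.5 and 173 ± 12.6 RPKM.

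Signalling genes downstream of the receptors were expressed in the cancer cells. Trk adaptor genes, which many receptors share, had a median log2 fold change of 0.72, beside 0.09 over all tested human genes. Of 16 tested, 14 values were positive and 2 negative, and 0 passed the test. The share of positive values over all tested human genes was not determined. SHC1 was at 636 ± 73.9 and 378 ± 77.3 RPKM (SD, n = 3 and n = 2), and the phospholipase gene PLCG1 at 289 ± 40.1 and 220 ± 99.5 RPKM. Partners of p75 had a median of 0.26 (5 positive and 4 negative of 9), with ARHGDIA at 760 ± 127 and 807 ± 33.5 RPKM and NGFRAP1, which encodes a p75-binding protein, at 249 ± 33.3 and 305 ± 243 RPKM. Among genes induced by neurotrophins and by many other signals, DUSP6, a MAP kinase phosphatase, was at 142, 91.7 and 111 RPKM in the brain and 47.2 and 35.4 RPKM in the lung tumors (log2 fold change 1.45, SE 0.34, limma adjusted p = 0.349). FOS stood the other way, at 51.1, 29.1 and 43.2 against 74.9 and 103 RPKM (log2 fold change -1.11, SE 0.37, adjusted p = 0.457). VGF, a neuropeptide precursor gene named after its values were seen, was at 70.9, 116 and 27.0 against 26.6 and 7.15 RPKM (log2 fold change 2.04, SE 0.69, adjusted p = 0.459). Without lung tumor 2 the log2 fold changes of SORL1, SOS1, PTPN11, KIDINS220 and RAPGEF1 were 1.95, 1.79, 1.92, 2.16 and 1.73. The median over all tested human genes was 0.25 in that fit. These genes were picked by the same fit, which keeps 1 lung tumor, so their values are no independent support.

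**Figure D5:**
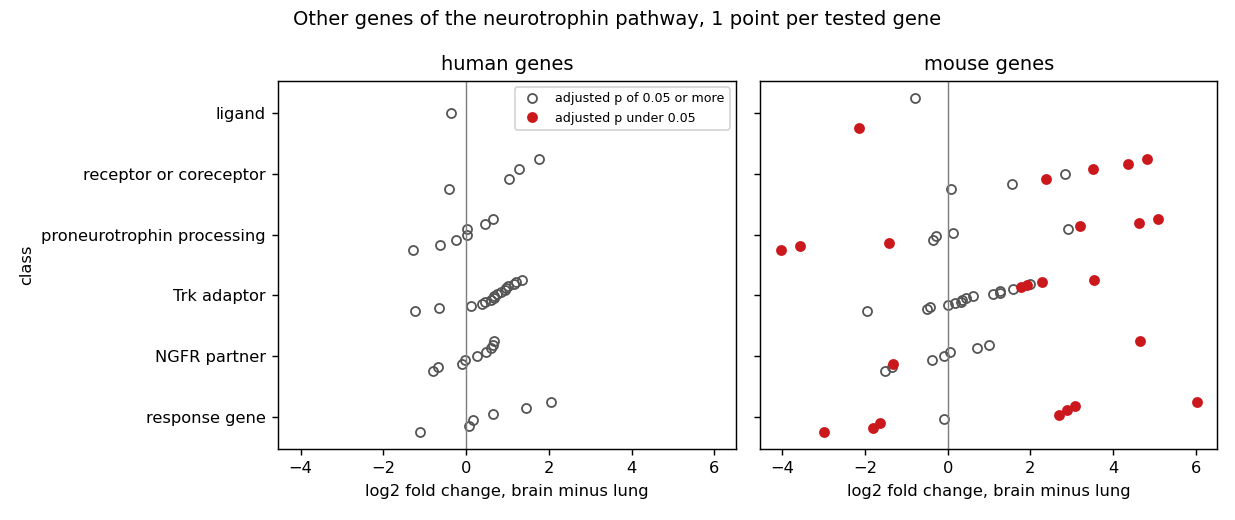
Log2 fold change, brain minus lung tumors, of the other genes of the pathway list by class, 1 point per tested gene, human on the left and mouse on the right, filled red where the limma adjusted p is under 0.05. Of the human genes 0 are red, and of the mouse genes 24 are, 16 of them higher and 8 lower.

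Host genes of the same list differed more. Of 54 tested, 16 rose and 8 fell in the brain tumors, or 24 against a background of 22.4% of tested mouse genes called, with a median log2 fold change of 0.52 beside 0.08 over all tested genes. An unadjusted p under 0.05 was found for 34, beside 38.5% of tested mouse genes, and without overlap 27 were higher and 12 lower, beside 30.0% and 26.2%. Coreceptors and sortilin relatives rose or did not pass (4 higher and 0 lower of 7, beside 14.3% and 8.12% of all tested mouse genes). Lingo1, a p75 coreceptor gene, was at 75.3, 121 and 100.03 RPKM in the brain and 2.75 and 2.17 RPKM in the lung tumors (log2 fold change 4.83, SE 0.35, limma adjusted p = 0.00124). Its value in lung tumor 1 is a single read. Rtn4r was at 21.6 ± 2.07 and 0.0954 ± 0.135 RPKM (SD, n = 3 and n = 2; adjusted p = 0.00190) and Sorcs1 at 11 ± 2.45 and 0.0461 ± 0.0653 RPKM (adjusted p = 0.00368). The lung means of Rtn4r and Sorcs1 each include a 0, on 0 reads, and lung tumor 1 was shallow in mouse reads. Sorcs3 was at 0 in both lung tumors. It was at least 3.65-fold higher in the brain tumors, taking 3 reads per library as the floor. Without lung tumor 1 it was at least 43.7-fold higher. Processing enzymes went both ways, 3 higher and 3 lower of 10, beside the same shares of 14.3% and 8.12%. The prohormone convertase gene Pcsk2 was at 62.1 ± 13.8 and 1.07 ± 1.32 RPKM (adjusted p = 0.00270), and Cpe at 4850, 5262 and 4178 against 587 and 61.9 RPKM (adjusted p = 0.0199). The matrix proteases Mmp9 and Mmp3 fell, with 4.76 ± 3.06 and 114 ± 109 RPKM (adjusted p = 0.0192) and 1.07 ± 0.983 and 26.6 ± 22.1 RPKM (adjusted p = 0.0190).

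Of 18 Trk adaptor genes of the host 4 rose and 0 fell, a share close to the 22.4% of all tested mouse genes called (14.3% higher). Shc3 was at 11.3, 13.3 and 8.11 RPKM in the brain tumors and 0 in both lung tumors, at least 2.53-fold higher with 3 reads per library as the floor and at least 30.2-fold without lung tumor 1. Shc2 was at 7.46 ± 3.13 and 0.850 ± 1.20 RPKM (SD, n = 3 and n = 2; limma adjusted p = 0.0477), Frs3 at 31.5 ± 3.78 and 7.81 ± 2.62 RPKM (adjusted p = 0.0164) and Kidins220, a TrkB and p75 scaffold gene, at 46.0 ± 4.66 and 13.6 ± 7.14 RPKM (adjusted p = 0.0293). Of 9 p75 partners Bex1 rose, from 0.628 ± 0.888 to 37.0 ± 5.95 RPKM (adjusted p = 0.00271), and Arhgdia fell, from 366 ± 87.8 to 147 ± 36.3 RPKM (adjusted p = 0.0471). Response genes split, 4 higher and 3 lower of 8, beside 14.3% and 8.12% of all tested mouse genes. Vgf was at 74.0, 70.0 and 56.0 against 0 and 0.0766 RPKM (adjusted p = 0.00112), Nptx2 at 6.80 ± 1.38 and 0.0365 ± 0.0516 RPKM (adjusted p = 0.00600) and Arc at 11.6 ± 8.63 and 0.272 ± 0.385 RPKM (adjusted p = 0.0306), while Egr2 was at 2.91 ± 2.83 and 25.3 ± 9.39 RPKM (adjusted p = 0.0381). The number of genes called fell from 24 to 10, 9 and 11 without brain tumor 1, 2 or 3. Over all tested mouse genes it fell from 3457 to 1518, 1195 and 1294. Called in all alternatives run for them were 9 genes (Bex1, Lingo1, Nptx2, Pcsk1, Pcsk2, Rtn4r, Shc3, Sorcs1 and Vgf). The share of all tested genes called so was not determined. Calls of Shc2, Arhgdia and Egr2 were less stable, and each held in 4 of 13 alternatives. Arc, Nptx2, Pcsk1, Rtn4r, Shc3, Sorcs1, Sorcs3 and Vgf were under 1 RPKM in both lung tumors. They passed the filter through the brain tumors alone, so their calls are no independent support. The same holds for Bex1, Pcsk2 and Shc2, which were under 1 RPKM in 1 of the lung tumors and passed only with the brain tumors. Mmp3 in turn passed only with the lung tumors, where it was high. Lung means of Arc, Bex1, Nptx2 and Shc2 include a 0, on 0 reads, and the value of Frs3 in lung tumor 1 is a single read.

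Among other ligands of the host, neurotrophin-4 (Ntf5 in the mouse table) had 0 reads in all 3 brain tumors, and 1 and 32 reads, 2.86 and 4.01 RPKM, in lung tumors 1 and 2. It was at least 7.54-fold lower in the brain tumors with 3 reads per library as the floor (limma adjusted p = 0.0116). It passed the filter through the lung tumors alone, so this p is no independent support, and the call was kept in 8 of 12 alternatives (adjusted p up to 0.0951). The value of lung tumor 1 is a single read.

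Genes with the most similar profile over the 5 libraries were found by the root mean square difference of centred log2(RPKM + 1) values, among genes with a mean RPKM of at least 5. For human SORT1 these were CGN, which encodes the tight junction protein cingulin, at 33.5, 32.5, 39.0, 7.29 and 17.5 RPKM (difference 0.0910), and ARID4A, at 94.3, 87.9, 143, 24.2 and 52.6 RPKM (0.102), in the order brain tumors 1 to 3 and lung tumors 1 and 2. For BDNF they were SYNM (0.0389) and SUV39H2 (0.0399), and 343 of 8943 candidates were within 0.2 of it, against 37 for SORT1. In the host, Ntrk2 was most like the neural adhesion gene Chl1 (0.170) and Fxyd7 (0.201), Ntrk3 like the potassium channel gene Kcnd2 (0.133) and Inpp5j (0.145), and Sort1 like Lrrc8b (0.0773) and Dock4 (0.102). Bdnf was most like Zscan26 (0.0415) and Zfp236 (0.0616), and Ngfr like Timm17b (0.0708) and Elmod2 (0.0794). The measure rests on 5 libraries and is a description.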

How the data were processed

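RNA from 3 brain and 2 lung tumors was sequenced, and the authors deposited RPKM values per gene in a human and a mouse table, on hg38 (GRCh38) and mm10 (GRCm38) per the submitters' processing notes. For the aligner, counter, gene lengths and species assignment: not given in the sources used here. Whole reads were recovered from the RPKM from 1 scale factor for each library, and all 21131 human and 20633 mouse genes above 0 in at least 2 libraries came out whole within 1e-06 reads. Genes with an RPKM of at least 1 in at least 2 libraries were tested as log2(RPKM + 1) with limma 3.58.1 in R 4.3.3 (eBayes with a trend, Benjamini-Hochberg adjustment over all tested genes of a species, called under 0.05), which understates changes of low genes. The fit was also run on simulated counts with a fixed dispersion for all genes and libraries, so that run does not check the spread among these tumors. There were 13 alternatives. Positions are RefSeq's on GRCh38.p14. Members and lists were chosen with earlier results of these data known. All members are described. Of the other genes neurotrophin-4 is named, and of each other class the called genes, at most 4 by fold change, or with 0 called the 2 of highest mean RPKM. Some genes that the naming rule or the marker lists hold are not reported here.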

Additional observations from a re-analysis of the deposited data

How the results depend on the processing

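SORT1, BDNF, Ntrk2 and Ntrk3 kept their direction in all 13 alternatives. Reversals touched 3 mouse members that did not pass the test: Bdnf was -0.26 with voom on recovered reads and -0.83 to 2.05 over the fits that left out 1 library, Ngfr was 0.011 with median-ratio scaling, 0.14 with the replicate block and -0.58 to 0.39 leaving out 1 library, and Sort1 was -0.16 to 2.28 leaving out 1 library. The cause was not tested. Of all human genes 1 was called, against 114 with the replicate block, 0 with voom and 0 to 1905 leaving out 1 library, the latter without lung tumor 2. Of the human pathway list 0 were called, against 1 with the block and 0 to 5 leaving out 1 library. Of all mouse genes 3457 were called, against 2295 without a filter, 1484 with the block and 1195 to 8275 leaving out 1 library. Of the mouse list 24 were called, against 14 with the block and 9 to 35 leaving out 1 library. Replicate numbers were not taken as pairs: deviations of same-numbered samples correlated at -0.08 and 0.06 in human and 0.03 and 0.05 in mouse genes, and brain tumor 3 has no partner, so the block fit takes nothing from it for the difference and has 1 residual degree of freedom, and for human genes its spread is borrowed wholly across genes. The human list gene called with the block was VGF, which in brain tumor 3 (27.0 RPKM) was close to lung tumor 1 (26.6 RPKM). Median-ratio scaling moved the median log2 fold change of all tested genes from 0.09 to -0.03 in human and from 0.08 to 0.22 in mouse. A fit that keeps 1 lung tumor takes its spread from the brain tumors. With 231044 mouse reads, lung tumor 1 limits every host comparison of a gene of low level.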
